A study of Mus musculus with 2 samples.

Results

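The 9 genes described here are the neurexins Nrxn2 and Nrxn3, the neuroligins Nlgn1, Nlgn2 and Nlgn3, the glypicans Gpc4 and Gpc6, and Sparc and Sparcl1. They were taken by symbol from the 32285 genes counted, and all 9 were found. Single-cell RNA sequencing of whole spinal cord had been carried out on FVB mice at postnatal day 4, as 1 library for each of 2 genotypes. The library labelled SMA came from mice of genotype mSmn-/-, hSMN22tg/0, which have no intact mouse Smn and carry a human SMN2 transgene. The library labelled Con came from mice of genotype mSmn+/-, hSMN22tg/0, which carry the same transgene and keep 1 intact mouse Smn allele. Whole cords were dissociated with enzymes, and per the study's methods each held 3 pooled littermates of the severe Taiwanese model of spinal muscular atrophy, a disease of motor neurons caused by too little SMN protein.

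Neurexins sit on the presynaptic membrane and bind across the cleft to neuroligins on the postsynaptic side, and the pair helps to organise the contact. Nlgn1 protein is known mainly from excitatory synapses, Nlgn2 protein from inhibitory ones, and Nlgn3 protein from both. Glia add secreted signals. The glypicans encoded by Gpc4 and Gpc6 are heparan sulfate proteoglycans that astrocytes release and that recruit AMPA receptors to young synapses. Sparcl1 (hevin) is a matricellular protein that promotes excitatory synapses by bridging neurexins and neuroligins, while Sparc, its relative, opposes hevin's action and is also a collagen-binding protein of connective tissue and vessels.

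With 1 library per genotype there was no replicate, so no difference between genotypes was tested, and every interval below is a 95% interval that covers counting error only. The files held 26921 barcodes labelled SMA and 25419 labelled Con, against about 3000 cells aimed for per channel in the protocol, and 8163 barcode sequences were listed in both. After the study's stated limits, 13296 and 10256 barcodes were kept, and a further 1339 of the library labelled Con were left out as a cluster of high ribosomal share. Leaving out SMA barcodes also listed for Con gave 6787 SMA and 8917 Con cells, with medians of 6109 and 6229 UMIs (unique molecular identifiers, each tagging 1 captured molecule). Values are given below for the library labelled SMA first and then for the library labelled Con, and log2 ratios are SMA over Con. Smn1 stood at 52.0 and 51.0 CPM (a gene's UMIs per 1000000 UMIs summed over the named cells outside the erythroid-like class, or elsewhere over the cells of a class, log2 ratio 0.03, interval -0.06 to 0.12). Tags at the 3′ end can come from a disrupted allele, so this value does not check the labels. Xist stood at 1.56 CPM against 611 CPM and a set of Y-linked genes at 168 CPM against 75.7 CPM, so the pools differed in their makeup of sexes, which cannot be told apart from genotype here. The X chromosome carries 2 of the 9 genes, Nlgn3 and Gpc4. Cells were put into marker-based classes, written with "-like", of which 11 held at least 50 cells in each library and were compared. Neuron-like cells numbered 43 and 26 and macrophage-like cells 30 and 62, so these classes are given by level only. Of 6 motor neuron markers (Chat, Slc18a3, Slc5a7, Mnx1, Isl1 and Prph), 0 had a UMI in neuron-like cells of either library.

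**Figure D1:**
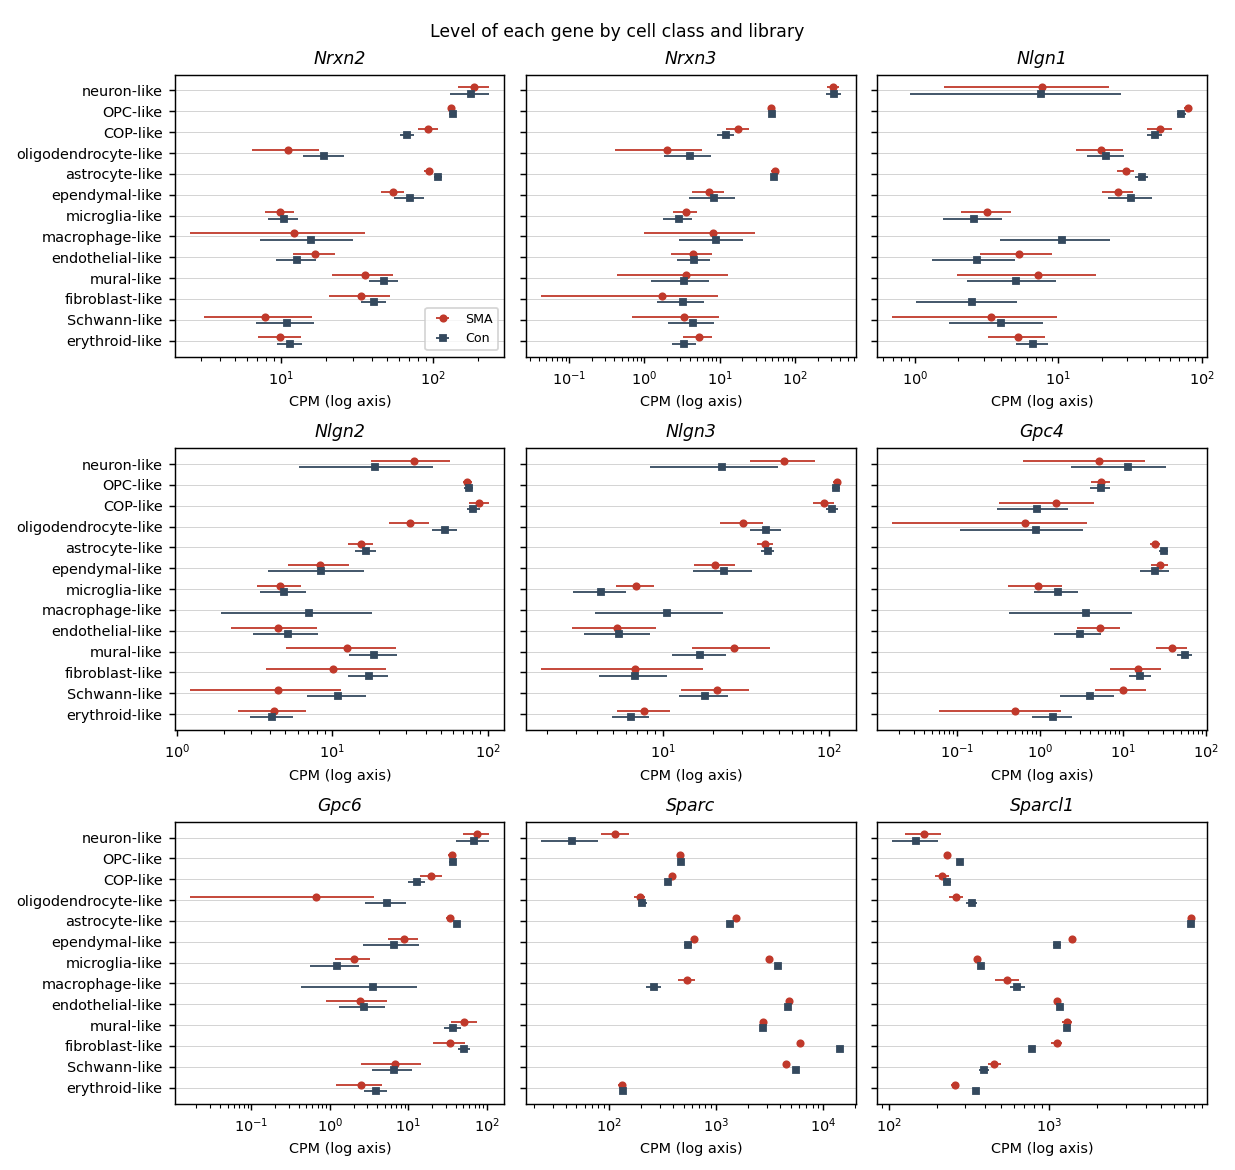
Level of each of the 9 genes in CPM (log axis) in 13 cell classes of the library labelled SMA (red circles) and the library labelled Con (dark squares). Bars are 95% Poisson counting intervals and points with 0 UMIs are not drawn. Within each class the 2 libraries mostly lie together, while the classes of a gene lie far apart, as Sparc does between 45.5 CPM and 14487 CPM.

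Both neurexins were highest in neuron-like cells, and were also present in the OPC-like (oligodendrocyte precursor) and astrocyte-like cells. Nrxn2 (chr19:6418731-6544169, plus strand, GRCm38) reached 188 CPM (SMA) and 178 CPM (Con) in neuron-like cells. OPC-like cells followed at 133 and 136 CPM, and in the library labelled Con their interval overlapped that of neuron-like cells. The astrocyte-like level was 94.2 CPM in SMA and 109 CPM in Con. COP-like cells (committed oligodendrocyte precursors) stood at 93.8 and 68.3 CPM, and ependymal-like cells at 54.7 and 70.6 CPM. Mural-like cells (pericytes and smooth muscle) held 35.7 and 47.7 CPM and fibroblast-like cells 33.9 and 41.2 CPM. In Con, 114 of the 115 fibroblast-like UMIs lay in 170 of the 602 cells, a cluster at 79.4 CPM, and 1 UMI in the other 432 cells. Nrxn2 was therefore spread over neural, ependymal and mural-like cells and a part of the fibroblast-like cells. In mature oligodendrocyte-like cells it stood at only 11.2 and 19.4 CPM, next to 9.98 and 11.5 CPM in erythroid-like cells, which should lack it. The erythroid-like values are no clean background, since haemoglobin genes took 82.9% and 82.7% of the UMIs there, which lowers the CPM of every other gene, and since 2 of the 3 erythroid-like clusters held RNA of other classes.

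Nrxn3 was more unequal between classes. Neuron-like cells held 324 CPM from 126 UMIs in SMA and 326 CPM from 86 UMIs in Con. Astrocyte-like cells came next, at 53.6 and 52.2 CPM, with intervals that overlapped those of OPC-like cells at 48.4 and 48.9 CPM. COP-like cells stood at 17.5 and 12.02 CPM. The other 9 classes were at 8.83 CPM or lower in both libraries, and their intervals ran into each other and into the erythroid-like values of 5.24 and 3.41 CPM. The first 4 places in the order of classes were the same in both libraries.

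Nrxn3 (chr12:88722876-90334935, plus strand) shows what the assay can and cannot see of these genes. Neurexin genes make long and short proteins from separate promoters. The 5 coding transcripts of Nrxn3 in GENCODE M21 start at 4 places that span 1017979 bases, yet their 5 ends span 2525 bases. UMIs counted at the 3′ end therefore sum over all these starts, and the Nrxn3 levels above cannot be assigned to a long or a short form. The first and the last of its 3 RefSeq start windows (GRCm38.p6, 250 bases before to 50 after the start, plus strand) are printed to show the sequence at 2 annotated starts. Any GGGCGG (a GC box) or TATAAA would stand in capitals. Whether each window acts as a promoter was not tested.
Nrxn3, first start, chr12:88794254-88794553: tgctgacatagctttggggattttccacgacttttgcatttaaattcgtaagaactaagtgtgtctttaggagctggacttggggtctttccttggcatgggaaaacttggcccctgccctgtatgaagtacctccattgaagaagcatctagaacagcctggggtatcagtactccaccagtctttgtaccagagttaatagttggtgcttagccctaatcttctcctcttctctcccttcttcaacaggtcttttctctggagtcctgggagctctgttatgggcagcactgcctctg
Nrxn3, last start, chr12:89812233-89812532: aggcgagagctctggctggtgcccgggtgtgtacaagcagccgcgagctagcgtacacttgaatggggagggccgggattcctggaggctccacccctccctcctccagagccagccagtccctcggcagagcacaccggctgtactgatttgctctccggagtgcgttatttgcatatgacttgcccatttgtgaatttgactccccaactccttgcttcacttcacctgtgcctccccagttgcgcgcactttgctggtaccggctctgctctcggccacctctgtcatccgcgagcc
The first window holds 2 CG pairs, and 14.1% of all 32851 RefSeq windows of this length hold fewer. The last window holds 16 CG pairs, and 67% hold fewer. Neither window has a match to GGGCGG, which 35.7% of all windows hold, or to TATAAA, which 13.6% hold, on either strand.

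The 3 neuroligins were highest in the oligodendrocyte lineage, not in the few neuron-like cells. These neuron-like cells formed a single cluster led by Snhg11, Cartpt and Pkd2l1, so they cannot stand for spinal neurons at large. Nlgn1 (chr3:25426215-26332460, minus strand) stood at 79.8 CPM (SMA) and 72.1 CPM (Con) in OPC-like cells. COP-like cells held 51.0 and 47.0 CPM and astrocyte-like cells 29.4 and 38.2 CPM, so its level was graded over glia. Neuron-like cells held 7.71 and 7.59 CPM, from 3 and 2 UMIs, with intervals that overlapped the erythroid-like levels of 5.24 and 6.61 CPM.

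Nlgn2 (chr11:69823122-69837784, minus strand) was highest in COP-like cells, at 88.7 CPM in SMA and 80.8 CPM in Con. OPC-like cells held 74.2 and 75.5 CPM, and the intervals of the 2 classes overlapped in each library. Oligodendrocyte-like cells held 31.6 and 53.1 CPM, neuron-like cells 33.4 and 19.0 CPM and astrocyte-like cells 15.3 and 16.5 CPM. Nlgn2 thus kept a higher level in mature cells of the lineage than in astrocyte-like cells of the same library, with intervals apart in both libraries. Its start window is printed because it is the neuroligin with a difference of over 1.5-fold between libraries below (GRCm38.p6, minus strand, read in the direction of transcription, GGGCGG and its reverse complement in capitals).
Nlgn2, chr11:69837735-69838034: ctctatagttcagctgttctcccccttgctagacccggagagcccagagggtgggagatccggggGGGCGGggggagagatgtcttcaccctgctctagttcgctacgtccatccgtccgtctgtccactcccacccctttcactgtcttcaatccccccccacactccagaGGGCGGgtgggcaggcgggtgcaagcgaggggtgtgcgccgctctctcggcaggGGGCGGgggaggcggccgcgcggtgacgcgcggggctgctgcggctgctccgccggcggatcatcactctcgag
This window has 3 matches to GGGCGG and 26 CG pairs, and 83.1% of windows hold fewer CG pairs.

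Nlgn3 (chrX:101299168-101325963, plus strand, overlapping Gm21986 on the same strand) was highest in OPC-like cells, at 112 CPM in SMA and 111 CPM in Con. COP-like cells followed at 93.8 and 105 CPM, overlapping the OPC-like intervals. Astrocyte-like cells held 41.5 and 42.9 CPM and oligodendrocyte-like cells 30.3 and 41.9 CPM. Schwann-like cells, the myelinating glia of the peripheral roots, held 21.3 and 18.0 CPM. Erythroid-like cells held 7.73 and 6.40 CPM. A small cluster held 21 of these 31 UMIs in SMA and 28 of 62 in Con, where a larger cluster of 445 cells also held 28. Neuron-like cells stood at 54.0 and 22.8 CPM, from 21 and 6 UMIs, and the intervals of the 2 libraries overlapped. In SMA the neuron-like interval (33.4 to 82.5) also overlapped the COP-like one (80.7 to 108).

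The glypicans were found in mural-like and fibroblast-like cells as well as in glia, and Gpc6 also in neuron-like cells. Endothelial-like cells held only 5.30 and 2.99 CPM of Gpc4 and 2.45 and 2.72 CPM of Gpc6. Gpc4 (chrX:52053021-52165252, minus strand) was highest in mural-like cells, at 39.3 CPM in SMA and 55.0 CPM in Con. Ependymal-like cells held 27.5 and 24.5 CPM and astrocyte-like cells 24.2 and 30.8 CPM, with overlapping intervals. OPC-like cells held only 5.37 and 5.36 CPM, so among glia Gpc4 was on the astrocyte-like and ependymal-like side. Gpc6 (chr14:116925315-117976544, plus strand) stood at 74.6 and 68.3 CPM in neuron-like cells, 51.8 and 36.5 CPM in mural-like cells and 33.9 and 51.2 CPM in fibroblast-like cells. OPC-like cells held 35.7 and 37.0 CPM and astrocyte-like cells 34.3 and 41.5 CPM. The intervals of these 2 glial classes overlapped in both libraries, so at this depth Gpc6 did not separate astrocyte-like from OPC-like cells, while Gpc4 did.

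Sparcl1 (chr5:104079111-104113733, minus strand) set the astrocyte-like cells apart from every other class. It reached 7695 CPM there in SMA and 7649 CPM in Con. The next classes were ependymal-like cells at 1383 and 1126 CPM, mural-like cells at 1298 and 1290 CPM, fibroblast-like cells at 1118 and 784 CPM and endothelial-like cells at 1116 and 1167 CPM. Neuron-like cells held 165 and 148 CPM. OPC-like, COP-like and oligodendrocyte-like cells lay between 215 and 328 CPM and the largest microglia-like cluster at 206 and 230 CPM. Erythroid-like cells held 259 and 351 CPM, but their largest cluster held 97.8 and 110 CPM and a smaller one 1040 and 1220 CPM. A low Sparcl1 level in the oligodendrocyte classes therefore cannot be told apart from free RNA.

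Sparc (chr11:55394500-55423183, minus strand) had another order. Fibroblast-like cells held 6064 CPM in SMA and 14487 CPM in Con. Schwann-like cells held 4561 and 5561 CPM, endothelial-like cells 4785 and 4682 CPM, microglia-like cells 3158 and 3813 CPM and mural-like cells 2777 and 2788 CPM. Astrocyte-like cells came only after these, at 1543 and 1346 CPM. Neuron-like cells were last in both libraries, at 116 and 45.5 CPM. The highest class of each of the 9 genes was the same in both libraries. In the library labelled Con this changed for Nlgn2, which was highest in OPC-like cells (78.5 CPM) with each cell weighted equally, and for Gpc6, which was highest in fibroblast-like cells (73.1 CPM) when only their cluster of both libraries was taken. Sparc and Sparcl1 shared no class among their first 2.

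The share of cells with a UMI gave the same picture when every cell was thinned to 1000 UMIs. Sparcl1 was found in 99.2% (SMA, exact Clopper-Pearson interval 98.6 to 99.6) and 99.6% (Con, 99.2 to 99.9) of astrocyte-like cells, against 19.3% (15.7 to 23.3) and 24.7% (22.2 to 27.4) of erythroid-like cells. Sparc was found in 88.4% (86.5 to 90.2) and 87.1% (85.0 to 89.0) of microglia-like cells, against 15.4% (12.2 to 19.1) and 16.0% (13.8 to 18.3) of erythroid-like cells. Thinning left out 15 and 78 erythroid-like cells that were too shallow and at most 31 cells of each other class and library named here. The rarer genes were found in few cells at this depth. Nlgn3 was found in 11.3% (9.90 to 12.7) and 10.9% (9.48 to 12.5) of OPC-like cells, against 0.68% (0.14 to 1.98) and 0.369% (0.101 to 0.942) of erythroid-like cells. Without thinning, Nlgn3 was found in 46.7% and 47.0% of OPC-like cells (median depths 5625 and 5788 UMIs) and 5.26% and 4.48% of erythroid-like cells (9363 and 9085.5 UMIs).

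**Figure D2:**
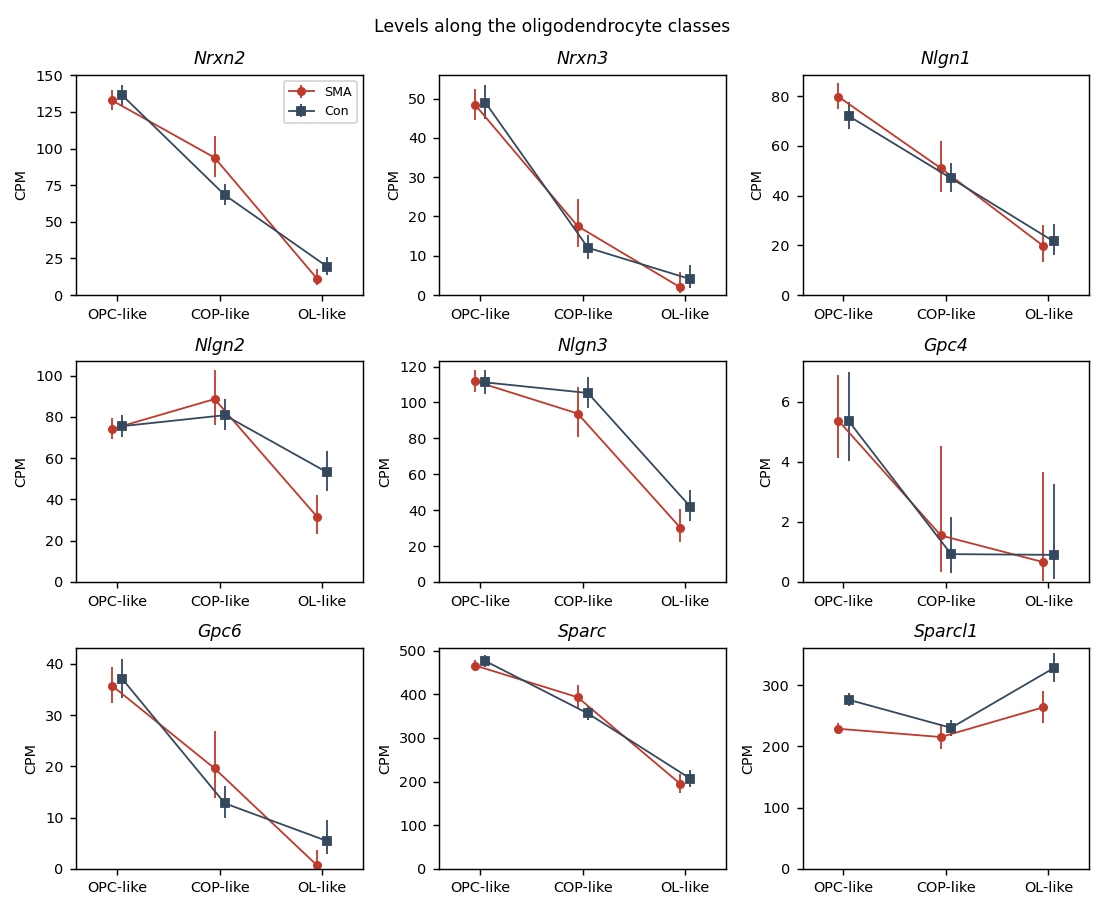
Level in CPM (linear axis from 0) of each gene in OPC-like, COP-like and oligodendrocyte-like (OL-like) cells, in the library labelled SMA (red circles) and the library labelled Con (dark squares). Bars are 95% Poisson counting intervals, and lines only join the classes of a library. Nrxn2, Nrxn3, Nlgn1, Nlgn3, Gpc6 and Sparc are lower in each next class, whereas Nlgn2 is lower only at the step from COP-like to OL-like cells.

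Along the oligodendrocyte classes most members stood lower in each next class. From OPC-like to COP-like to oligodendrocyte-like cells, Nrxn2 went from 133 to 93.8 to 11.2 CPM in the library labelled SMA, and from 136 to 68.3 to 19.4 CPM in the library labelled Con. Sparc went from 466 to 393 to 195 CPM in SMA and from 476 to 356 to 207 CPM in Con. For these 2 genes and for Nrxn3, Nlgn1 and Gpc6, both steps went down in both libraries. Nlgn3 also went down at both steps, from 112 to 93.8 to 30.3 CPM in SMA and from 111 to 105 to 41.9 CPM in Con, with overlapping intervals at the first step. Nlgn2 went from 74.2 to 88.7 to 31.6 CPM and from 75.5 to 80.8 to 53.1 CPM, with overlapping intervals at the first step and lower levels at the last. Gpc4 stood at 5.37 CPM or lower in all 3 classes. Sparcl1 went from 229 to 215 to 264 CPM in SMA and from 276 to 230 to 328 CPM in Con. It was thus lowest in COP-like cells, though in SMA their interval overlapped that of OPC-like cells.

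**Figure D3:**
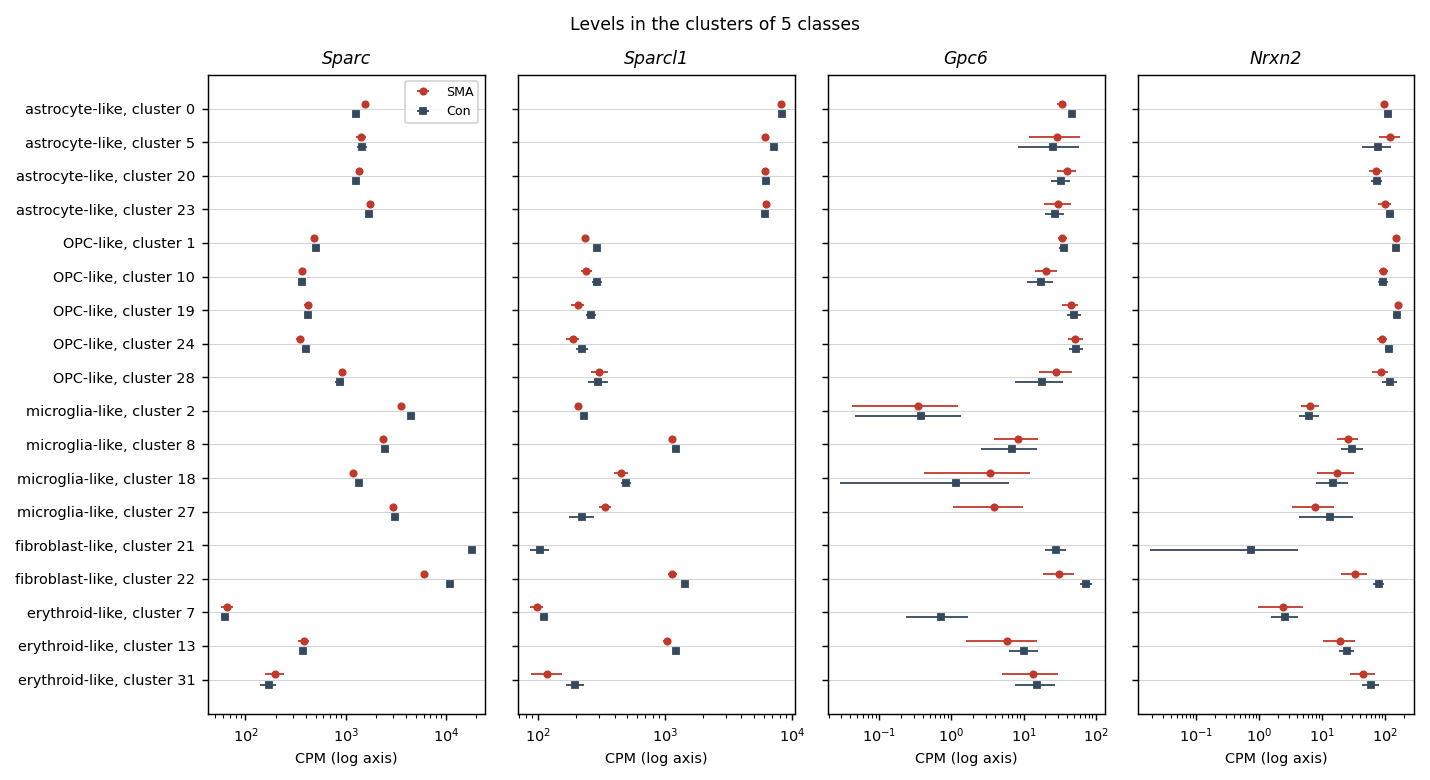
Levels of Sparc, Sparcl1, Gpc6 and Nrxn2 in CPM (log axis) in the clusters that make up 5 of the classes, with 95% Poisson counting intervals, in the library labelled SMA (red circles) and the library labelled Con (dark squares). Clusters with under 20 cells in a library have no point for it. Fibroblast-like cluster 21 has a point for the library labelled Con only, and Sparc is higher there than in any other cluster drawn.

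Clusters within a class held unlike levels, and mostly in both libraries alike. Among OPC-like cells, Gpc6 was lowest in a cluster led by mitotic genes (Cenpa, Cenpf, Ccnb1), at 20.6 CPM in SMA, while a cluster led by genes of DNA replication (Ung, Mcm6, Cdc6) held 44.7 CPM. In the library labelled Con the same clusters held 17.2 and 50.2 CPM. The intervals of these clusters were apart in both libraries, while the smallest OPC-like cluster overlapped the mitotic one. Nlgn1 was also lowest among OPC-like clusters in the mitotic one, at 51.5 CPM in SMA and 40.5 CPM in Con, against 83.3 and 92.0 CPM in the replication cluster. A small OPC-like cluster led by Pnlip, Lrfn5 and Slc22a3 held 929 and 874 CPM of Sparc, while the other OPC-like clusters held 348 to 509 CPM. Among astrocyte-like cells, the largest cluster held 62.4 CPM of Nrxn3 in each library, and the cluster led by Gfap, an intermediate filament gene of white matter and reactive astrocytes, held 24.9 and 20.3 CPM. Gpc4 went the same way, with intervals apart in Con and overlapping in SMA, at 26.6 and 34.9 CPM in the largest cluster and 12.4 and 12.03 CPM in the Gfap cluster. In microglia-like cells, Sparc ranged from 3529 CPM (SMA) and 4491 CPM (Con) in the largest cluster to 1182 and 1360 CPM in a cluster led by Aif1 and Ighm, whose cells had a median of 2053 UMIs.

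**Figure D4:**
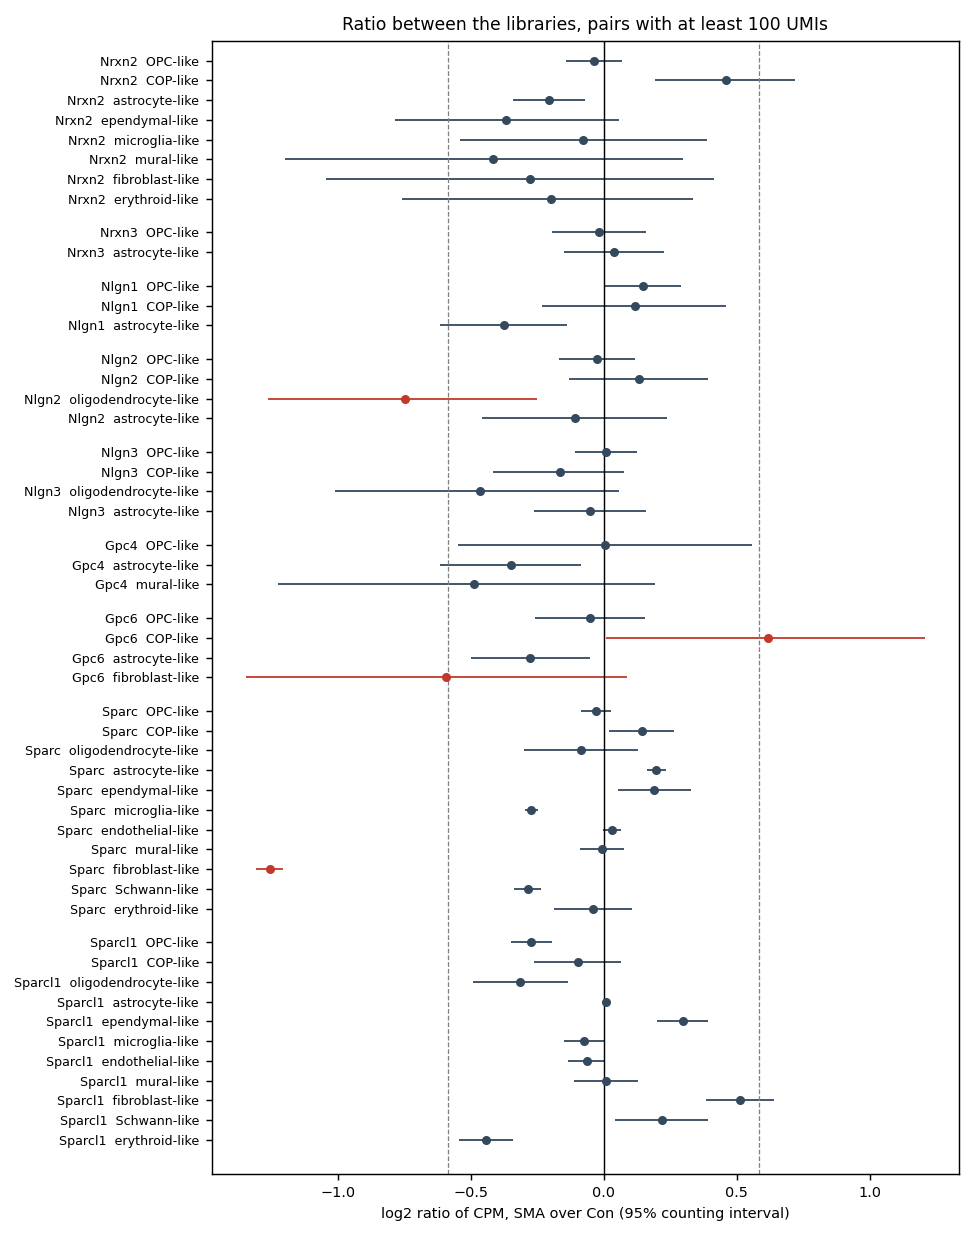
Log2 ratio of CPM, library labelled SMA over library labelled Con, for the 50 pairs of gene and class with at least 100 UMIs over both libraries. Bars are 95% counting intervals, dashed lines mark 1.5-fold, and red points lie past it. Only 4 points are past 1.5-fold, and Sparc in fibroblast-like cells at -1.26 is the farthest from 0.

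The genotype comparison asked whether these genes differed between the libraries within a class. Of 99 pairs of gene and class, 50 had at least 100 UMIs and were compared. Of these 50, 3 were at least 1.5-fold lower and 1 at least 1.5-fold higher in the library labelled SMA, where 4.53% of all 66240 gene and class pairs were that much lower, 3.78% that much higher and 8.3% past 1.5-fold either way. The share of the 9 genes was thus near that of all genes. The median log2 ratio was -0.06, beside -0.01 over all pairs, and 33 of the 50 were below 0, beside 51.4% of all pairs. The counting interval lay below 0 in 11 of the 50 pairs and above 0 in 9, beside 15.4% and 15.1% of all pairs, and spanned 0 in 30. The 49 pairs under 100 UMIs are not read for a difference.

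OPC-like cells were the class with most cells. All 9 genes could be compared there, and all 9 were within 1.5-fold, where 3.3% of 10867 genes were not. Nlgn3 had 1290 UMIs in SMA and 1120 in Con, a log2 ratio of 0.01 (interval -0.11 to 0.12). Nlgn2 gave -0.03 (-0.17 to 0.12) and Nrxn3 -0.02 (-0.19 to 0.16). For these genes the interval excludes a difference of 1.5-fold between the 2 libraries, though not between genotypes. Nlgn1 was slightly higher in SMA (0.15, interval 0.01 to 0.29). Sparcl1 was lower (-0.27, interval -0.35 to -0.19) and was lower in erythroid-like cells too (-0.44, interval -0.54 to -0.34). The erythroid-like clusters were mixed in unlike shares. In the 2 largest the libraries stood closer together, at 97.8 (SMA) and 110 CPM (Con) in one and at 1040 and 1220 CPM in the other. The latter held 145 of 456 and 445 of 1162 cells. In the smallest the intervals were apart, at 118 (88.3 to 155) and 195 CPM (164 to 231).

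In oligodendrocyte-like cells all 4 members compared were below 0, as were 54.7% of all genes of the class. Nlgn2 had 48 UMIs in 145 cells labelled SMA and 118 UMIs in 257 cells labelled Con, or 31.6 against 53.1 CPM, a log2 ratio of -0.75 (interval -1.26 to -0.25). In this class 6.31% of 4626 genes were 1.5-fold lower. With each cell weighted equally the ratio was -0.33, no longer past 1.5-fold. Nlgn3 stood at 30.3 and 41.9 CPM (-0.47, interval -1.01 to 0.06). Markers of several classes differed as well. All 10 COP markers were lower in SMA, summing to 8619 CPM against 12179 CPM, and 8 of 10 oligodendrocyte markers were higher, summing to 70182 against 60262 CPM. All 10 microglia markers were higher, at 242 against 127 CPM. COP markers were lower in SMA in OPC-like (-0.28), astrocyte-like (-0.23) and erythroid-like cells (-1.10) too, so this is not particular to the oligodendrocyte-like cells. In none of these 3 lists was a marker at 0 in oligodendrocyte-like cells of either library, and their part in the Nlgn2 value was not tested.

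In COP-like cells 2 of the 7 members compared lay below 0, beside 45.4% of all genes of the class. Gpc6 had 38 UMIs in SMA and 69 in Con, or 19.6 against 12.8 CPM, a log2 ratio of 0.62 (interval 0.01 to 1.21), in a class where 2.77% of 7172 genes were 1.5-fold higher. Nrxn2 gave 0.46 (0.19 to 0.72) and Sparc 0.14 (0.02 to 0.27). All 3 stood at a higher level in OPC-like than in COP-like cells of the same library. Markers in the same cells differed too. Of 10 oligodendrocyte markers, 9 were lower in SMA, summing to 10207 against 14246 CPM, and of 10 COP markers 8 were lower, summing to 11124 against 13332 CPM. Of 10 OPC markers 5 were higher and 5 lower, summing to 3676 and 3580 CPM, and none of the 3 lists had a marker at 0. Oligodendrocyte markers were also lower in OPC-like (-0.66), astrocyte-like (-0.51), endothelial-like (-0.80) and microglia-like cells (-0.50), beside -0.48 here. The part of these in the Gpc6 and Nrxn2 values was not tested. Under several other settings Gpc6 was inside 1.5-fold, at 0.58 when centred on the median gene and as low as 0.43 with no upper limit on genes.

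Astrocyte-like cells, the class in which Sparcl1 and Gpc4 are known to be made for synapses, had no member past 1.5-fold either way, where 4.82% of 9943 genes were. Sparcl1 had 61448 and 77527 UMIs and a log2 ratio of 0.01 (interval -0.01 to 0.02). Its counterpart Sparc was 0.20 higher (0.16 to 0.23). Intervals lay below 0 for 4 of the 9 genes, beside 21.7% of all genes of the class, namely Nlgn1 (-0.38, interval -0.62 to -0.14), Gpc4 (-0.35, -0.62 to -0.09), Gpc6 (-0.28, -0.50 to -0.05) and Nrxn2 (-0.21, -0.34 to -0.07). Of all genes of the class 61.6% were below 0 and the median stood at -0.07, while 3 of the 9 members were above 0. The part of the class median in these 4 values was not tested. Markers of OPC-like cells summed to 954 CPM (SMA) and 1152 CPM (Con) in astrocyte-like cells, with 7 of 10 lower and none at 0. Their part in the Nlgn1 and Nrxn2 values, which are genes of OPC-like cells too, was not tested. Gpc4 is X-linked, and the pools differed in Xist as given above.

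Fibroblast-like cells held the largest difference and the least comparable cells. Sparc stood at 6064 CPM in 63 cells labelled SMA and 14487 CPM in 602 cells labelled Con, a log2 ratio of -1.26 (interval -1.31 to -1.21), in a class where 22% of 4065 genes were 1.5-fold lower. The class is made of 2 clusters. The cluster led by Timp1, Mfap5 and Pi16 held 2 cells labelled SMA and 432 labelled Con, and the cluster led by Mfap4, Slc6a13 and Igf2 held 61 and 170. Within the latter cluster Sparc stood at 6072 against 11068 CPM (-0.87, interval -0.92 to -0.81), so it stayed past 1.5-fold between the libraries, in a cluster where 14.5% of 2689 genes were that much lower. Gpc6 went from -0.59 (interval -1.35 to 0.09) in the whole class to -1.22 (-2.03 to -0.49) within this cluster, from 18 and 105 UMIs. Nrxn2 went from -0.28 to -1.26 (-2.05 to -0.55), from 19 and 114 UMIs. Sparcl1 changed direction, from 0.51 (0.39 to 0.64) to -0.32 (-0.45 to -0.19). Within this cluster the fibroblast markers also differed. Of 10, 8 were lower in SMA although their sum was higher, at 49605 against 23893 CPM, and astrocyte markers summed to 1994 against 1417 CPM with 9 of 10 higher and none at 0. The part of these in the member values was not tested.

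In the other classes compared, Sparc differed by less than 1.5-fold. It was lower in microglia-like cells (-0.27, interval -0.30 to -0.25) and in Schwann-like cells (-0.29, -0.34 to -0.23), higher in ependymal-like cells (0.19, 0.05 to 0.33), and at 0.03 in endothelial-like cells with an interval spanning 0, as in mural-like cells (-0.01, -0.09 to 0.08). Haemoglobin took 3.90% (SMA) and 6.37% (Con) of the UMIs of microglia-like cells, and Sparc stood at -0.31 there with haemoglobin genes left out of the totals. In the classes too small to compare, the Sparc levels were 534 and 263 CPM in macrophage-like cells and 116 and 45.5 CPM in neuron-like cells, the latter from 45 and 12 UMIs. Sparcl1 was 0.30 higher in ependymal-like cells (0.20 to 0.39), where 9 of 10 astrocyte markers were higher as well, summing to 1742 against 1437 CPM with none at 0, and the part of these was not tested.

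The other genes of these pathways were described from 6 lists, whose counts are to be read beside the 4.53% lower and 3.78% higher over all gene and class pairs. The 22 other partners of neurexins (such as the postsynaptic Lrrtm proteins, latrophilins and C1q-like proteins) gave 69 pairs with at least 100 UMIs, of which 6 were 1.5-fold lower and 3 higher, with a median of 0.01. C1ql1, a secreted C1q-like protein, was lower in astrocyte-like cells (14.9 against 45.7 CPM, -1.62) and in OPC-like cells (292 against 471 CPM, -0.69). C1ql3 was higher in COP-like cells (85.0 against 44.8 CPM, 0.93). Of the latrophilins, Adgrl1 was lower in oligodendrocyte-like cells (-0.98), and Adgrl3 was higher in endothelial-like cells (0.80) and lower in oligodendrocyte-like cells (-0.71). The 19 partners and scaffolds of neuroligins gave 57 pairs, of which 3 were lower and 1 higher, with a median of -0.03. Gphn, the gephyrin scaffold of inhibitory synapses, was lower in oligodendrocyte-like cells (22.4 against 37.4 CPM, -0.74). Cask was lower in the same class (54.0 against 92.3 CPM, -0.77). Magi2, a scaffold that binds neuroligins, was higher in ependymal-like cells (0.71). The 21 other synaptic adhesion molecules gave 96 pairs, of which 6 were lower and 5 higher, with a median of -0.02. In oligodendrocyte-like cells Ptprd, a receptor phosphatase, was higher (238 against 112 CPM, 1.09), while Cadm1 (-0.73) and Cadm2 (-0.73), which encode SynCAM proteins, were lower. Il1rapl1 was higher in OPC-like (0.77) and COP-like cells (1.00).

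The remaining 3 lists were of glial genes. The 8 other glypicans and their synaptic partners gave 18 pairs, of which 3 were lower and 1 higher, with a median of -0.04. Gpc3 was lower in astrocyte-like cells (5.76 against 12.7 CPM, -1.14) and higher in fibroblast-like cells (1.07, and 0.40 in the cluster of both libraries). Gpc2 was lower in OPC-like cells (-0.71). The 6 other genes of the SPARC family gave 15 pairs, of which 2 were lower and 1 higher, with a median of 0.09. Fstl1 was lower in fibroblast-like cells (-0.99), but stood at 543 against 547 CPM (-0.01) within the cluster of both libraries. Smoc1 was higher in COP-like cells (0.74). The 14 other glial factors that act on synapses, including thrombospondins, tenascin and brevican, gave 51 pairs, of which 16 were lower and 4 higher, with a median of -0.32. Fibroblast-like cells, where 22% of all genes were lower, held 7 of these 16, led by Thbs4 (-4.78, interval -10.09 to -2.27, from 1 and 130 UMIs), Thbs1 (-2.86), Tgfb1 (-2.83) and Tnc (-2.30), and the library labelled SMA almost lacked 1 of the 2 clusters of this class, as given above. Within the cluster of both libraries, Tgfb1 had 4 and 30 UMIs and Tnc 18 and 65 UMIs, too few to be read for a difference. Of the same list, 2 genes had at least 100 UMIs there and went opposite ways, Thbs2 at 80.1 against 120 CPM (-0.59, interval -1.09 to -0.11) and Bcan at 87.0 against 59.2 CPM (0.56, 0.02 to 1.08). The other lower pairs of this list lay outside fibroblast-like cells, with 2 of 11 in astrocyte-like and 2 of 2 in erythroid-like cells. There was 1 each in microglia-like (of 5), endothelial-like (of 4), mural-like (of 4), Schwann-like (of 3) and oligodendrocyte-like cells (of 2). The 4 higher pairs were 1 each in OPC-like, ependymal-like, oligodendrocyte-like and fibroblast-like cells.

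The 6 lists were also put together within a class. Of 23 listed pairs in oligodendrocyte-like cells, 8 were 1.5-fold lower and 2 higher, or 43.5%, where 11.2% of all genes of the class were past 1.5-fold. The median was -0.27, beside -0.04 over all genes. Bcan, the brevican of perineuronal matrix and a gene of precursors, was lower (465 against 969 CPM, -1.06), and Thbs3 was higher (64.5 against 22.5 CPM, 1.52). The share of listed pairs past 1.5-fold was above that of all genes in 9 other classes as well. It was 66.7% of 18 pairs in fibroblast-like cells (35.6% of all genes) and 26.7% of 15 in Schwann-like cells (10.8%). It was 16.7% of 12 in erythroid-like (11.1%), 15.8% of 19 in endothelial-like (9.22%) and 11.3% of 53 in astrocyte-like cells (4.82%). It was 9.52% of 21 in microglia-like (5.05%), 9.09% of 22 in ependymal-like (5.08%), 8.89% of 45 in COP-like (4.88%) and 7.69% of 65 in OPC-like cells (3.3%). Only in mural-like cells was it lower, at 7.69% of 13 beside 11.4%. The shares in erythroid-like, microglia-like and ependymal-like cells rested on 2 pairs each. The listed genes were not matched to all genes in number of UMIs. The COP and oligodendrocyte marker sums given beside the Nlgn2 value are of these same cells, and their part in the list values was not tested.

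The genes whose class pattern was most like that of each member were found by Pearson correlation of log2(CPM + 10) over 22 points, the 11 compared classes in each library, among 8962 genes with at least 1000 UMIs. Points share a library and differ in depth, so these values are descriptions. Among the members, Nlgn1 and Nlgn3 were most alike (r = 0.91), followed by Nlgn2 and Nlgn3 (0.89), while Nrxn2 and Nrxn3 gave 0.81 and Sparc and Sparcl1 0.39. Nrxn2 was most like Unc119 (0.97) and Slc4a3 (0.95), and Nrxn3 most like Gm45169 (0.96) and Brinp2 (0.96). Nlgn1 was most like Lrrc4b (0.96), a postsynaptic adhesion gene, and Scg5 (0.96). Nlgn2 was most like Armh4 (0.97) and Cask (0.95), and Nlgn3 most like Fsd1 (0.95) and Fam171b (0.95). Gpc4 was most like Sdc2 (0.95), a syndecan, which is the other family of membrane heparan sulfate proteoglycans, and Plce1 (0.92). Gpc6 was most like Akap7 (0.92) and Chpf (0.91), an enzyme of chondroitin sulfate synthesis. Sparc was most like Plin3 (0.93) and Fcgrt (0.93), and Sparcl1 most like Gstm1 (0.94), a glutathione transferase of astrocytes, and Lxn (0.92).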

How the data were processed

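The deposited files held raw UMI counts for each gene in each barcode, which the authors had produced with Cell Ranger (4.0.0 per the file headers) from 10x Genomics 3′ version 3 libraries. The submitters' processing notes name mm10 and Seurat 3.2.2. Barcodes with under 200 or over 4000 genes or 10% or more mitochondrial UMIs were left out, the study's stated limits, and the gene limit was the only treatment of doublets. Counts were scaled to 10000, the 2000 most variable genes reduced to 30 components, and 20 nearest neighbours divided by the Louvain method at resolution 1 (scanpy 1.11.5) into 33 clusters, named from 18 marker lists, with 4 left unnamed. Neither the clustering nor the marker lists used the members or the listed genes. UMIs were summed per class and library, with exact Poisson intervals for levels, exact conditional binomial intervals for ratios and a sum of at least 100 UMIs for a comparison, and no test was possible with 1 library per group. Intervals cover counting error only. Listed genes are named where they were past 1.5-fold, at most 4 per list by size of ratio, and others named were chosen after their values were seen. The values of 1 listed gene are not reported here. Likeness names the 2 genes of highest r. Members and lists were chosen with earlier results of these data known. Positions came from GENCODE M21 and promoter windows, matched for 5 of 9 members, from RefSeq. The ratio steps were run on simulated Poisson counts with equal totals. That checks the calculation only, since the classes had unequal totals and mixed clusters.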

Additional observations from a re-analysis of the deposited data

Results flagged for a closer look

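Gpc6 stood out because its difference between the libraries had opposite directions in 2 classes past 1.5-fold. The log2 ratio, SMA over Con, was 0.62 in COP-like cells and -0.59 in fibroblast-like cells. The interval in fibroblast-like cells spanned 0 (-1.35 to 0.09). Centred on the median gene of the class, both values were inside 1.5-fold, at 0.58 and -0.58, and with shared barcodes kept they were 0.55 and -0.44. Within the fibroblast-like cluster of both libraries, Gpc6 stood at -1.22 (-2.03 to -0.49). The difference between the classes was not tested, and the values rest on 38 and 69 UMIs in COP-like cells and 20 and 143 UMIs in fibroblast-like cells.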

How the results depend on the processing

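With 1 library per genotype, no setting could be judged by replicate error. No paired analysis was possible because each group was a single library. Settings also changed how many pairs had enough UMIs. The pairs at least 1.5-fold lower in SMA (3 of 50) numbered 5 of 60 with a mitochondrial limit of 20%, 6 of 64 with no upper limit on genes, 5 of 68 with at least 50 UMIs, 1 of 38 with at least 300 UMIs and 1 of 50 at 2-fold. The pairs at least 1.5-fold higher (1 of 50) numbered 3 of 58 with shared barcodes kept, 2 of 60 with the 20% limit, 2 of 53 at Louvain resolution 0.5, 2 of 50 with each cell weighted equally and 3 of 68 with at least 50 UMIs, and 0 with cells of at least 5000 UMIs, centred on the median gene, with at least 300 UMIs or at 2-fold. With shared barcodes kept, Sparc in fibroblast-like cells was -0.94, Gpc6 -0.44 there and 0.55 in COP-like cells, and Nlgn2 in oligodendrocyte-like cells -0.65. Gpc6 in both classes was inside 1.5-fold when centred on the median gene (0.58 and -0.58). The median of the other adhesion molecules was 0.024 with cells of at least 5000 UMIs and 0.023 with the 20% limit, and that of neurexin partners -0.048 with no upper limit on genes. The median of the glial factors (-0.32) was -0.18 with shared barcodes kept, -0.39 with at least 300 UMIs and, in settings chosen after seeing the data, -0.24 in the fibroblast-like cluster of both libraries and -0.23 in clusters with a median of at least 3000 UMIs. The cause of these moves was not tested. Depth left 49 of 99 pairs under 100 UMIs, in 7 of the 9 genes.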
